A study of Mus musculus with 10 samples.

Results

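The genes described are 34 genes of macrophages: receptors and adaptors that macrophages in most tissues carry, phagocytic and lysosomal genes, and genes used to describe macrophage states, chosen by name and apart from genes particular to microglia. Of the 34, 33 are listed in the deposited files, out of 16895 genes in all, and FCGR1A was not analysed here. They were measured by RNA-seq in 10 meningioma-like mouse tumors, YAP1-MAML2-v2 (n = 7) and NLS-2SA-YAP1 (n = 3). All mice were Nestin/tv-a and Cdkn2a null, which means that the receptor for an avian virus was driven by Nestin and the tumor suppressor Cdkn2a was missing in every group. As newborns they received DF1 cells, chicken fibroblasts that shed RCAS virus carrying 1 of the constructs, into the subarachnoid space. No other treatment was given, and the ages at death are not given in the labels. YAP1-MAML2 joins the coactivator YAP1 to the Notch coactivator MAML2, and NLS-2SA-YAP1 is a YAP1 with a nuclear localization signal and changed serines that escapes restraint by the Hippo pathway. By source region, the extra cranial tumors were replicates 1, 3, 4 and 5 of YAP1-MAML2-v2 with replicates 2 and 3 of NLS-2SA-YAP1. The extra axial tumors were replicates 2 and 6 of YAP1-MAML2-v2 with replicate 1 of NLS-2SA-YAP1, and replicate 7 of YAP1-MAML2-v2 was the lone intra ventricular tumor. No library of normal brain, meninges or sorted cells was analysed here.

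Macrophages depend on signaling through CSF1R, the receptor for the cytokines CSF1 and IL34, and on the transcription factor PU.1, the product of Spi1, which binds purine-rich ETS sites at many myeloid genes. They are a main source of C1q, the recognition unit of the classical complement pathway. In the brain, microglia live in the parenchyma, while border macrophages of the meninges, perivascular spaces and choroid plexus carry receptors such as MRC1, CD163 and LYVE1 that microglia largely lack.

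Promoter windows from RefSeq (GRCm38.p6, 250 bases before to 50 after the start) were listed for 21 of the 32 genes that match a single mouse gene. The following 5 are shown because the results turn on these genes: the C1q genes and Laptm5 were high in the intra ventricular tumor, and Mrc1 and Cd163 were low there. Capitals mark GAGGAA, the PU.1-type ETS core, or its reverse TTCCTC.
C1qb, chr4:136886151-136886450, minus strand: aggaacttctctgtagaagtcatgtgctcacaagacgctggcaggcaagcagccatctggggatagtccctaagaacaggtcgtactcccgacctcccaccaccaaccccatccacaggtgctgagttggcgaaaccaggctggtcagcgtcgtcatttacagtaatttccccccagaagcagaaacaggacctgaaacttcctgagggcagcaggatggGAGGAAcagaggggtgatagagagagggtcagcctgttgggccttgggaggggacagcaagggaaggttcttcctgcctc
C1qc, chr4:136892865-136893164, minus strand: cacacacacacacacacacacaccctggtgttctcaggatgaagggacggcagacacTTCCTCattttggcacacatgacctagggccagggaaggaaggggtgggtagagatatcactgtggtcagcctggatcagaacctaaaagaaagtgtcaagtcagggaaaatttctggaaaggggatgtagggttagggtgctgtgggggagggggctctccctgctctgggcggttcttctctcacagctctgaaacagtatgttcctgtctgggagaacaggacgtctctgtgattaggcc
Laptm5, chr4:130913066-130913365, plus strand: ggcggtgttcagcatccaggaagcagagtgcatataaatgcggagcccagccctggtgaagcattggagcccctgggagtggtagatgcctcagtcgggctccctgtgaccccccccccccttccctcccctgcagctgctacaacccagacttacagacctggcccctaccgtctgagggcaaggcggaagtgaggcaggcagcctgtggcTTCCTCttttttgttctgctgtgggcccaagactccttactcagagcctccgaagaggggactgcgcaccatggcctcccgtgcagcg
Mrc1, chr2:14229164-14229463, plus strand: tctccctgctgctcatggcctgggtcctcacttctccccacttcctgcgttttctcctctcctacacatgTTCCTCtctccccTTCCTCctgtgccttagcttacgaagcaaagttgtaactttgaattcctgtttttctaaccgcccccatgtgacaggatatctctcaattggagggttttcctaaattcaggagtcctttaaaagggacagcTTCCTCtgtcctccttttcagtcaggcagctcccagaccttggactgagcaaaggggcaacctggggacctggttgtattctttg
Cd163, chr6:124304401-124304700, plus strand: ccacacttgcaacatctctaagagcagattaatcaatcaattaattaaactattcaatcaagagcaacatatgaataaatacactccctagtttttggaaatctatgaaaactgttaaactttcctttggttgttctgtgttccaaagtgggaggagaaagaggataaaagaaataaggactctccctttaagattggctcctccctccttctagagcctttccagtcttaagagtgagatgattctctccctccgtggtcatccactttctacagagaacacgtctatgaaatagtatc
These letters occurred on either strand in at least 1 window of 12 of the 21 macrophage genes (57.1%), against 31.3% of all 27025 genes with a window. The 12 are Aif1, Apoe, C1qb, C1qc, Cd68, Ctss, Cybb, Itgam, Laptm5, Mrc1, Spp1 and Trem2. Of the 2 shown genes that were low in the intra ventricular tumor, Mrc1 held 3 matches and Cd163 none, and Cybb, also low there, held 1. Of the genes high there, Aif1, C1qb, C1qc, Ctss, Itgam, Laptm5 and Trem2 held a match. Cd9, Csf1, Mertk, Ncf1 and Tlr2, also high there, held none. The AP-1 motif TGANTCA, which is its own reverse, was found at 4 of 21 genes (Cd68, Cybb, Gpnmb and Trem2; 19%, against 8.97% of all genes), and TCACGTG, an E-box bound by regulators of lysosomal genes, at 0 of 21 (4.29% of all genes). Matches of different motifs were counted separately, whether or not they overlapped, and a match is a description of the sequence only.

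Values are CPM, the deposited values divided by TMM-scaled library totals, and are not corrected for gene length. The defining macrophage genes CSF1R, C1QA, C1QB, C1QC, AIF1, TYROBP and LAPTM5 were present in all 10 tumors, the lowest at 15.1 CPM. CD68, the lysosomal glycoprotein often used to mark macrophages, was the exception, at 0.0239 to 0.66 CPM (deposited values of 1 to 20), although no annotated exon of another gene overlaps it. ARG1, the arginase of alternatively activated macrophages, was as low, at deposited values of 1 to 40. These 2 genes did not pass the filter on low values, and 31 of the 33 entered the tests. Per kilobase of exon the highest median levels were those of APOE, a lipid carrier (421 CPM per kb), CD9, a tetraspanin of many cell types (165), C1QA (153), C1QB (132) and TYROBP (83.1). Near the bottom of the same per-kilobase scale were the transcription factor IRF8 (2.14) and NCF1, a cytosolic subunit of the phagocyte NADPH oxidase (1.09). LYZ, lysozyme, has 2 mouse counterparts, Lyz1 and Lyz2, and which of them the deposited name stands for is not given. Some counts may be shared with overlapping genes: 68.7% of the exon bases of ITGAM lie in Gm49368 on the same strand, and 18.8% of those of SPP1 lie in Gm42793. In whole tumors, fewer macrophages and less RNA per macrophage cannot be told apart.

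Library totals lay between 28001143 and 44544314. They are not sequencing depth, because the deposited values appear to be adjusted, and depth is unknown. YAP1-MAML2-v2 replicates 6 and 7 have deposited names that begin with the same number, and the labels do not say whether they came from 1 mouse. Labels do not say that any of the libraries came from separate animals, so the p-values measure the spread between these samples.

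The C1q chains varied between tumors but kept their proportions. C1QA, C1QB and C1QC lie side by side on chromosome 4 (136895917 to 136898803, 136880129 to 136886187 and 136889804 to 136893065, minus strand, mm10) and encode the 3 chains of one protein. C1QA had a lowest value of 64.5 CPM, a median of 170 and a highest of 499 in YAP1-MAML2-v2 tumors, and with NLS-2SA-YAP1 the values were 135, 93.9 and 177 CPM (replicates 1, 2 and 3, the order used throughout). The highest value was that of the intra ventricular tumor and the lowest that of YAP1-MAML2-v2 replicate 2, and the constructs overlapped. C1QB ran from 50.3 over a median of 154 to 409 CPM, with 115, 83 and 165 CPM for NLS-2SA-YAP1. C1QC ran from 39.4 over a median of 115 to 400 CPM, with 86.7, 57.9 and 102 CPM for NLS-2SA-YAP1. Although each gene differed 7.73-fold or more between its highest and lowest tumor, the ratio of C1QA to C1QB stayed between 1.07 and 1.28 in all 10 tumors. The ratio of C1QA to C1QC stayed between 1.15 and 1.73.

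In the intra ventricular tumor many general macrophage genes had their highest value of the 10 tumors. It is a single library, so nothing here separates the ventricle from that tumor, and it enters no test of region. In it, 15 of the 31 tested genes (48.4%) lay above all 9 other tumors and at least 2-fold above their median, where 16.8% of all 13707 genes tested did. Another 4 genes (12.9%) lay below all others by the same rule, a share near the 13.3% of all genes. Scaling by library totals or by RLE size factors gave 14 and 16 genes above, with the same 4 below. CD9 was not among the 14, and SPI1 was added among the 16.

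Among the receptors and adaptors, CSF1R was at 623 CPM in the intra ventricular tumor. It lay between 119 and 223 CPM in the other YAP1-MAML2-v2 tumors and at 109, 158 and 140 CPM with NLS-2SA-YAP1, so the intra ventricular value was 2.8 times the next highest. ITGAM, the integrin chain CD11b, had 173 CPM there and 16.6 to 40.9 CPM in the other 9 tumors. TYROBP, the adaptor that passes on signals from TREM2 and related receptors, had 187 CPM against 28.5 to 94.9 CPM, and TREM2, a lipid-sensing receptor, 81.7 against 11.6 to 49.1 CPM. MERTK, a receptor for the uptake of dead cells, had 162 CPM against 13.4 to 52.2 CPM. TLR2, a receptor for bacterial lipoproteins, had 231 CPM against 18.3 to 86.4 CPM. LAPTM5, a lysosomal membrane protein of blood cells, and CTSS, a lysosomal protease, were 3- and 4.56-fold above the median of the other tumors. NCF1 was 5.76-fold above it and AIF1, the cytoplasmic protein IBA1, 2.74-fold. All of these were therefore higher in the intra ventricular tumor than in any other, but not all phagocyte genes were. CD14, the co-receptor for lipopolysaccharide, had 156 CPM there and up to 200 CPM elsewhere. FCER1G, an adaptor of Fc receptors, had 78.7 CPM there and 95 CPM in YAP1-MAML2-v2 replicate 5.

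**Figure D1:**
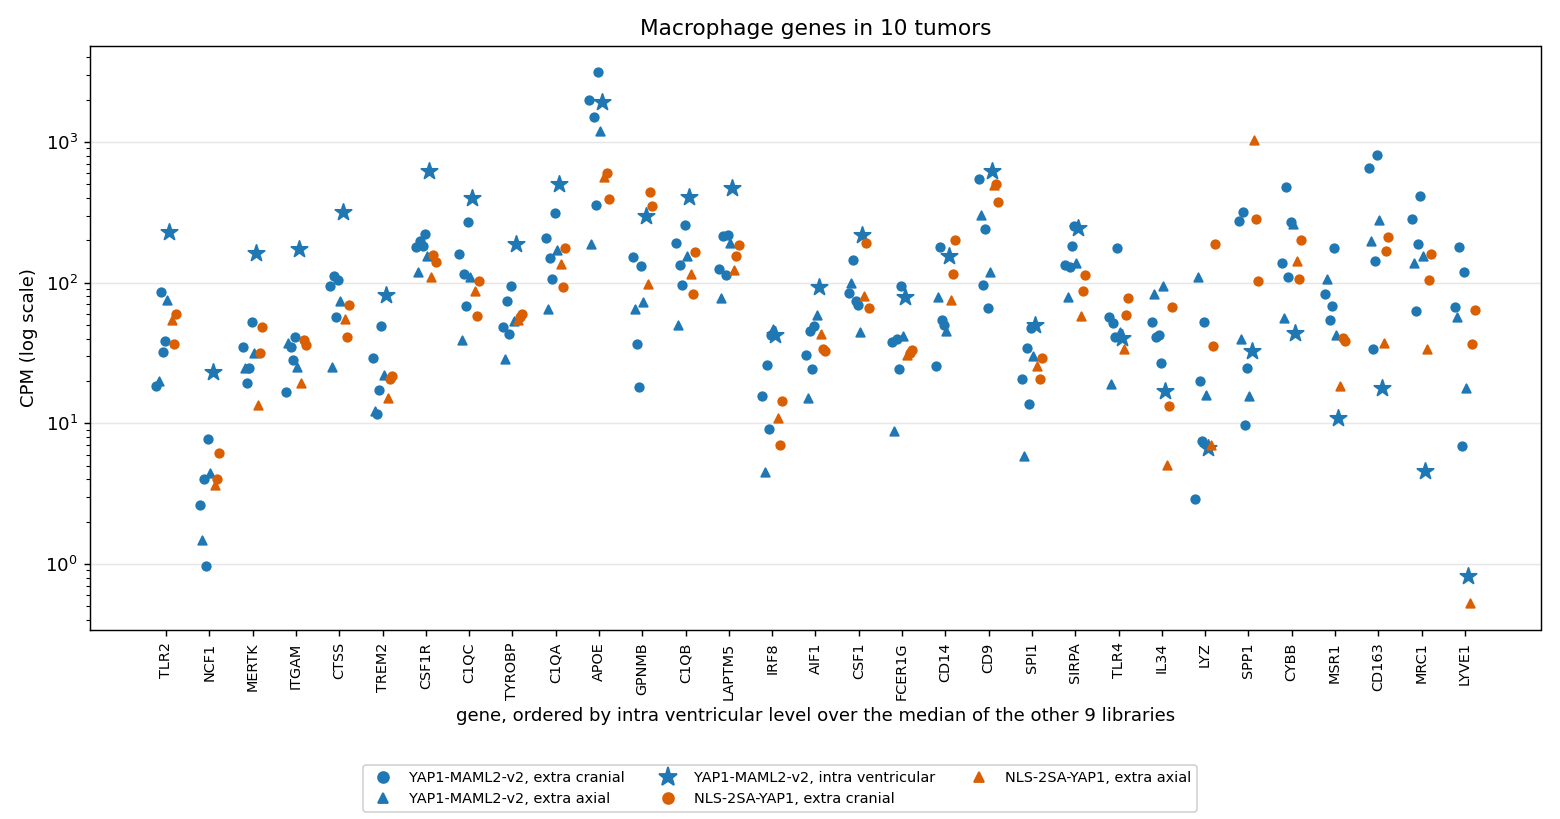
CPM (log scale) of each macrophage gene in the 10 tumors, 1 point per library, with color for the construct and shape for the source region, and genes ordered by the intra ventricular level over the median of the other 9. The intra ventricular star lies above all other points for CSF1R (623 CPM) and ITGAM (173 CPM) and below them for MRC1 (4.62 CPM) and CD163 (17.9 CPM).

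The 4 genes below all other tumors were MRC1, CD163, MSR1 and CYBB, a share near that of all genes. MRC1, the mannose receptor, was at 4.62 CPM in the intra ventricular tumor, at 63.2 to 414 CPM in the other YAP1-MAML2-v2 tumors, and at 33.9, 104 and 161 CPM with NLS-2SA-YAP1. Its intra ventricular value was 33.5-fold under the median of the others. CD163, the receptor for haptoglobin-bound hemoglobin, had 17.9 CPM there, 33.6 to 810 CPM in the other YAP1-MAML2-v2 tumors, and 37.3, 168 and 210 CPM with NLS-2SA-YAP1. That places it 11-fold under the median of the others. MSR1, a receptor for modified lipoproteins, had 11 CPM against 18.5 to 177 CPM. CYBB, the membrane subunit of the NADPH oxidase, had 43.7 CPM against 56.4 to 482 CPM, while its partner NCF1 was at its highest. LYVE1, a hyaluronan receptor of border macrophages and of lymphatic endothelium, had 0.829 CPM, but NLS-2SA-YAP1 replicate 1 was lower still at 0.527 CPM. The 5 lymphatic markers summed to 23 CPM in the intra ventricular tumor and to 13.9 to 610 CPM elsewhere. Of them RELN was lowest there (0.0237 against 2.51 to 602 CPM), PROX1 (3.46), FLT4 (14.5) and MMRN1 (4.97 CPM) lay above the medians of the others (0.595, 6.58 and 2.95 CPM), and CCL21 was at 0 throughout. Their part in the LYVE1 values was not tested.

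Ratios within a tumor describe the same values on a common scale, and since MRC1 and CD163 were low and C1QA high in the intra ventricular tumor, their direction there is given by that choice. The ratio of MRC1 to C1QA was 0.00926 in the intra ventricular tumor and 0.251 to 2.12 in the other 9. For CD163 over C1QA it was 0.0359 against 0.226 to 3.15. The lowest of the other values belonged to NLS-2SA-YAP1 replicate 1 for MRC1 and to YAP1-MAML2-v2 replicate 3 for CD163. The mean log2 CPM of 7 core genes (CSF1R, C1QA, C1QB, C1QC, AIF1, TYROBP and LAPTM5; CD68 was left out after its low values were seen) was 8.36 in the intra ventricular tumor and 5.56 to 7.45 in the others. With that mean subtracted in each tumor, 9 of the 24 other tested genes (37.5%) were lowest in the intra ventricular tumor: MRC1, CD163, LYVE1, MSR1, SPP1, CYBB, IL34, LYZ and TLR4. Because the subtraction lowers every gene that did not rise with the core, 60.4% of all genes were lowest there too, and the count is below that background. CTSS and NCF1 were highest even after it (2 of 24, 8.33%, against 3.69% of all genes).

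**Figure D2:**
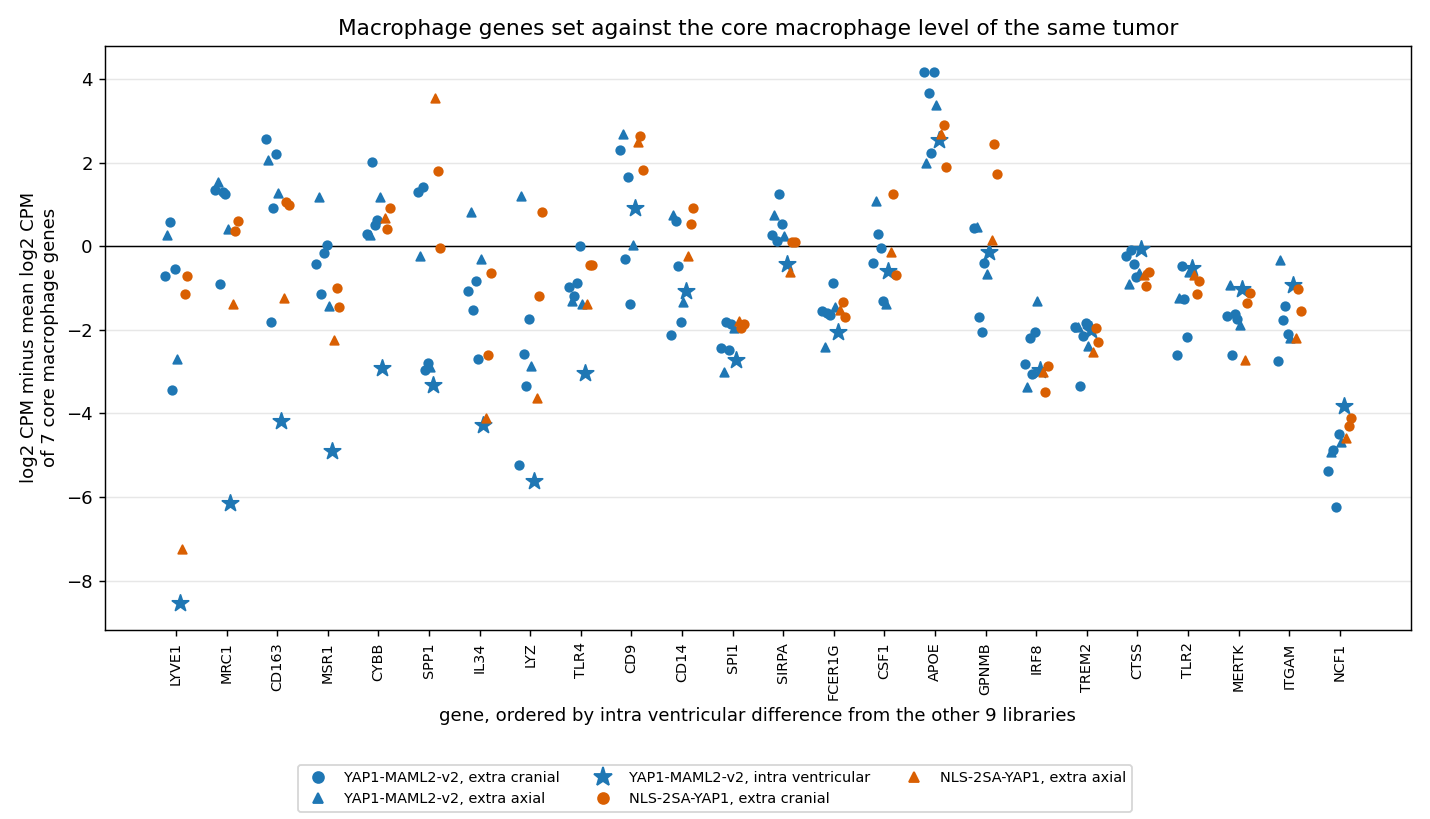
Log2 CPM of each tested gene outside the core minus the mean log2 CPM of 7 core macrophage genes in the same tumor, 1 point per library, with color for the construct and shape for the region. In the intra ventricular tumor MRC1 and CD163 lie lowest of the 10 tumors, and CTSS and NCF1 lie highest.

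Markers of other cell types also differed in the intra ventricular tumor. All 9 genes of a microglial list were highest there, where 19.9% of all genes were, and their summed level was 1950 CPM against 300 to 536 CPM in the other tumors. P2RY12, a purine receptor of microglia, had 163 CPM against at most 6.95 CPM, SALL1, a transcription factor of microglia, 169 against at most 19.5 CPM, and TMEM119 93.6 against at most 22 CPM. Astrocyte markers summed to 3010 CPM, against 177 to 1310 CPM elsewhere, with 5 of 6 highest there and GFAP at 1200 CPM against at most 39.9 CPM. These markers were high together with CSF1R, the C1q genes and the other genes that were high in this tumor, and their part in those values was not tested. The summed neutrophil list was 125 CPM against 24.8 to 53.3 CPM, of which CSF3R gave 101 CPM. Of its 7 tested genes 3 were highest there and 1, S100A8, was lowest. The 3 were CSF3R, LCN2 (15.6 against at most 11.1 CPM) and LTF (6.2 against at most 2.99 CPM). ELANE and CAMP stood at 0 or 1 in every library. T and NK cell markers (41.2 CPM, of which CD4 gave 30 CPM) lay inside the range of the others (17.6 to 267 CPM). B cell markers did too (4.14 against 0.393 to 26.3 CPM), as did dendritic cell markers (53.4 against 37.8 to 109 CPM). ITGAX gave 44.8 CPM of the dendritic cell sum, and ZBTB46 of that list was lowest there (4.52 against 10.2 to 42.6 CPM). The mast cell list was high, at 139 against 6.75 to 80.7 CPM, but KIT, which other cells also express, gave 131 CPM of it, and the mast cell protease CPA3 was listed at 0. Osteoclast markers, which share the myeloid lineage, summed to 28.8 CPM against 105 to 650 CPM. CTSK, a collagen-degrading protease, gave 21.9 CPM of it and was the 1 of 4 tested markers that was lowest there, while CALCR was highest, at 3.34 against at most 1.81 CPM.

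**Figure D3:**
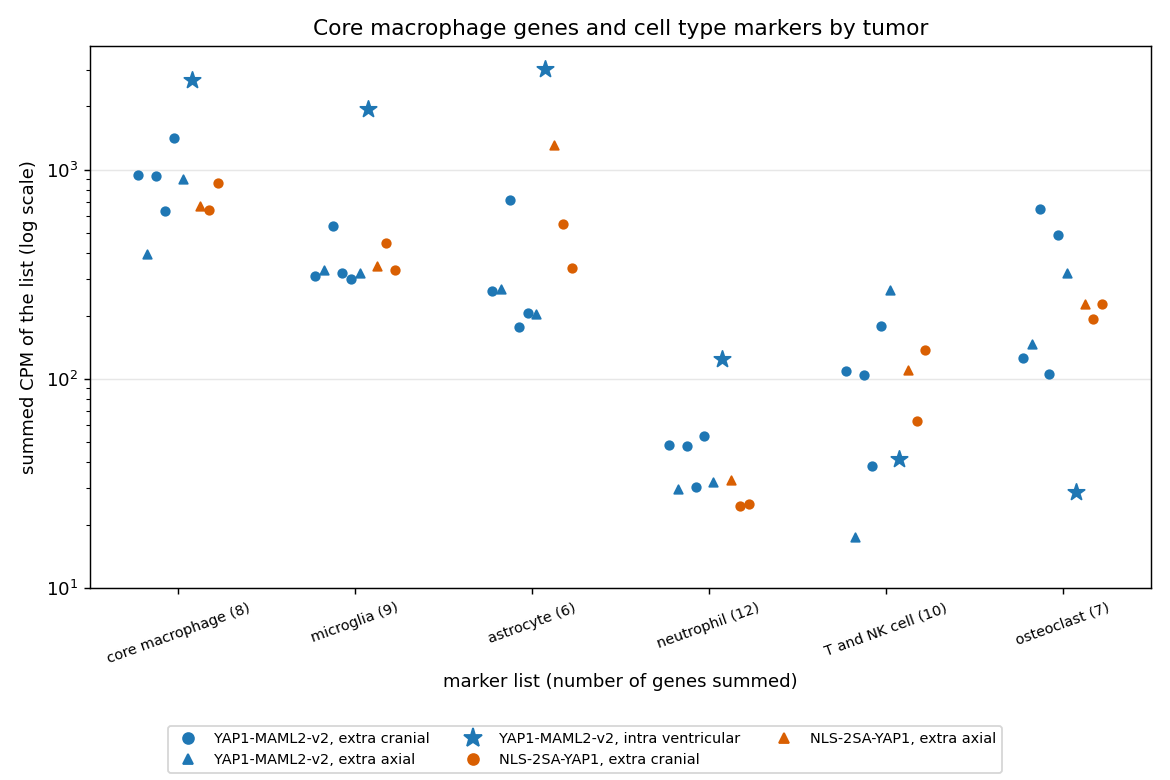
Summed CPM (log scale) of the core macrophage list and of 5 lists of cell type markers in each of the 10 tumors, with color for the construct and shape for the region. The intra ventricular star is highest for the microglial list (1950 CPM) and the astrocyte list (3010 CPM) and lowest for the osteoclast list (28.8 CPM).

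Related genes outside the 34 were spread over both directions in the intra ventricular tumor; those named here were chosen after their values were seen. Of 17 tested other macrophage surface genes, 4 were highest there (MPEG1, CLEC7A, CD86 and CD36) and 5 lowest (MS4A7, F13A1, CLEC4A, SIGLEC1 and STAB1). Of all genes tested, 19.9% were highest there and 17.8% lowest. STAB1, a scavenger receptor often found with CD163, had 32.6 CPM against 166 to 718 CPM, and MS4A7, a membrane protein of border and infiltrating macrophages, 4.71 against 44.9 to 138 CPM. The list of 13 genes of ITAM signaling includes the adaptors TYROBP and FCER1G, which belong to the 34, with the pathway downstream of them. Of the 13, 8 were highest there, TYROBP among them, and none lowest. INPP5D, a lipid phosphatase of that pathway, had 230 CPM against 39.2 to 95.7 CPM. Among 13 lysosome and lipid genes 3 were highest and 4 lowest, with the protease CTSD at 541 against 108 to 167 CPM and the lipid chaperone FABP5 at 0.545 against 23.8 to 109 CPM.

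Outside the ventricle, 2 tumors lay outside the range of the others for more macrophage genes than any other tumor did. YAP1-MAML2-v2 replicate 2, an extra axial tumor, lay below the other 9 and at least 2-fold under their median for 11 of the 31 genes (35.5%), against 11% of all genes. These were AIF1, C1QA, C1QB, C1QC, FCER1G, LAPTM5, CTSS, APOE, SPI1, IRF8 and TLR4. SPI1, the gene of PU.1, had 5.82 CPM there and 13.7 to 50.2 CPM in the others, and IRF8, its partner in myeloid cells, 4.53 against 7.07 to 46.7 CPM. YAP1-MAML2-v2 replicate 5, an extra cranial tumor, lay above the others by the same rule for 6 genes (19.4%), against 6.96% of all genes: MRC1, FCER1G, CD163, MSR1, APOE and TLR4. TLR4, the lipopolysaccharide receptor, had 175 CPM in it and at most 77.9 CPM elsewhere, and APOE had 3120 CPM against at most 1990 CPM. FCER1G, APOE and TLR4 were in both sets, lowest in replicate 2 and highest in replicate 5. Not every gene was low in replicate 2, where MSR1 (107 CPM) and LYZ (109 CPM) were each the second highest of the 10.

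The widest range among tested genes was that of LYVE1, from 0.527 to 178 CPM, and the narrowest was that of SIRPA, the receptor for CD47, from 58 to 252 CPM (4.35-fold). The narrowest range depended on the intra ventricular tumor: over the other 9, CSF1R (2.05-fold) and ITGAM (2.46-fold) varied least, and SIRPA still varied 4.35-fold. SPP1, osteopontin, which many cell types besides macrophages secrete, ran from 9.78 CPM in YAP1-MAML2-v2 replicate 4 to 1030 CPM in NLS-2SA-YAP1 replicate 1. LYZ ran from 2.92 to 188 CPM.

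Of the 2 ligands of CSF1R, CSF1 was highest in the intra ventricular tumor, as the receptor was, and IL34 was not. CSF1 lay between 44.6 and 220 CPM in YAP1-MAML2-v2 tumors, with a median of 84.3, and at 80.5, 190 and 65.6 CPM with NLS-2SA-YAP1. NLS-2SA-YAP1 replicate 2, with the second highest CSF1, had 158 CPM of CSF1R. IL34, the ligand that neurons and epithelia make, ran from 17 over a median of 42.6 to 94 CPM in YAP1-MAML2-v2 tumors and was at 5.07, 13.3 and 67.3 CPM with NLS-2SA-YAP1. In CPM, CSF1 exceeded IL34 in 8 of 10 tumors, and the ratio ran from 0.475 in YAP1-MAML2-v2 replicate 6 to 15.9 in NLS-2SA-YAP1 replicate 1. Per kilobase of exon the order of the medians was reversed, at 15.6 CPM per kb for CSF1 and 21.4 for IL34. Which ligand was the higher therefore depends on the correction for gene length. In the rest of the CSF family, CSF2 and CSF3 were at or under 0.43 CPM in every tumor.

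The study's first comparison is between the constructs. No macrophage gene passed the threshold in edgeR's quasi-likelihood test with region as a term: 0 of 31, where 2 of 13707 genes (0.0146%) did. At an unadjusted p under 0.05 there were 3 of 31, MSR1, GPNMB and SIRPA, a share of 9.68% that is below the 13.1% of all genes. DESeq2 called 1 of 31 (MSR1, lower with NLS-2SA-YAP1; 3.23%, against 5% of all genes, of which 3.36% lower) and limma-voom 0 of 31 (0.693% of all genes). Of the 31, 11 had a positive and 20 a negative log2 fold change (64.5% negative, against 51.6% of all genes), with a median of -0.23 against -0.03 for all genes. Without YAP1-MAML2-v2 replicate 5 the median was 0.06, and without replicate 6 it was -0.01, so its sign rested on single tumors.

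MSR1 was the gene nearest to a difference. The NLS-2SA-YAP1 tumors had 18.5, 40.4 and 38.8 CPM of it, and YAP1-MAML2-v2 replicates 1 to 7 had 82.5, 107, 53.9, 68, 177, 42.7 and 11 CPM. Outside the ventricle the constructs did not overlap, with all NLS-2SA-YAP1 tumors below all YAP1-MAML2-v2 tumors, and the low intra ventricular value broke that order. It was the only 1 of 31 to be separated so (3.23%), against 4.28% of all genes. With the intra ventricular tumor included 0 of 31 were separated, against 3.71% of all genes higher and 3.03% lower with NLS-2SA-YAP1. The estimate was -1.50 (log2; SE 0.48; adjusted p = 0.268 in edgeR), DESeq2 gave an adjusted p of 0.0401, and over the settings tried the adjusted p ran from 0.0401 to 0.617.

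GPNMB, a glycoprotein of lipid-laden macrophages and of pigment cells, pointed to higher values with NLS-2SA-YAP1. Values were 97.9, 441 and 350 CPM with NLS-2SA-YAP1, against a lowest value of 18.2, a median of 72.9 and a highest of 300 CPM in YAP1-MAML2-v2 tumors. Both extra cranial NLS-2SA-YAP1 tumors exceeded every YAP1-MAML2-v2 tumor, but the extra axial one fell within their range. The estimate was 1.73 (log2; SE 0.64; adjusted p = 0.304 in edgeR). The summed level of skeletal muscle markers was also highest in the extra cranial NLS-2SA-YAP1 tumors, at 72.9 and 251 CPM. TNNT3 alone gave 62.1 and 222 CPM of these sums. The summed level was 1.27 CPM in the extra axial NLS-2SA-YAP1 tumor and 0.89 to 50.3 CPM with YAP1-MAML2-v2. With the mean of these markers as a covariate the GPNMB estimate was 1.92 (SE 1.06; adjusted p = 0.577 in edgeR) and that of MSR1 -1.20 (SE 0.72; adjusted p = 0.617). SIRPA had 58, 86.7 and 114 CPM with NLS-2SA-YAP1 and 79.2 to 252 CPM (median 137) with YAP1-MAML2-v2, a log2 fold change of -0.83 (SE 0.34; edgeR adjusted p = 0.343). MRC1 (-1.22, SE 0.56; edgeR adjusted p = 0.396) and CD163 (-1.57, SE 0.88; edgeR adjusted p = 0.483) had larger negative estimates with wider errors. No direction was therefore established for any of these genes between the constructs by edgeR.

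**Figure D4:**
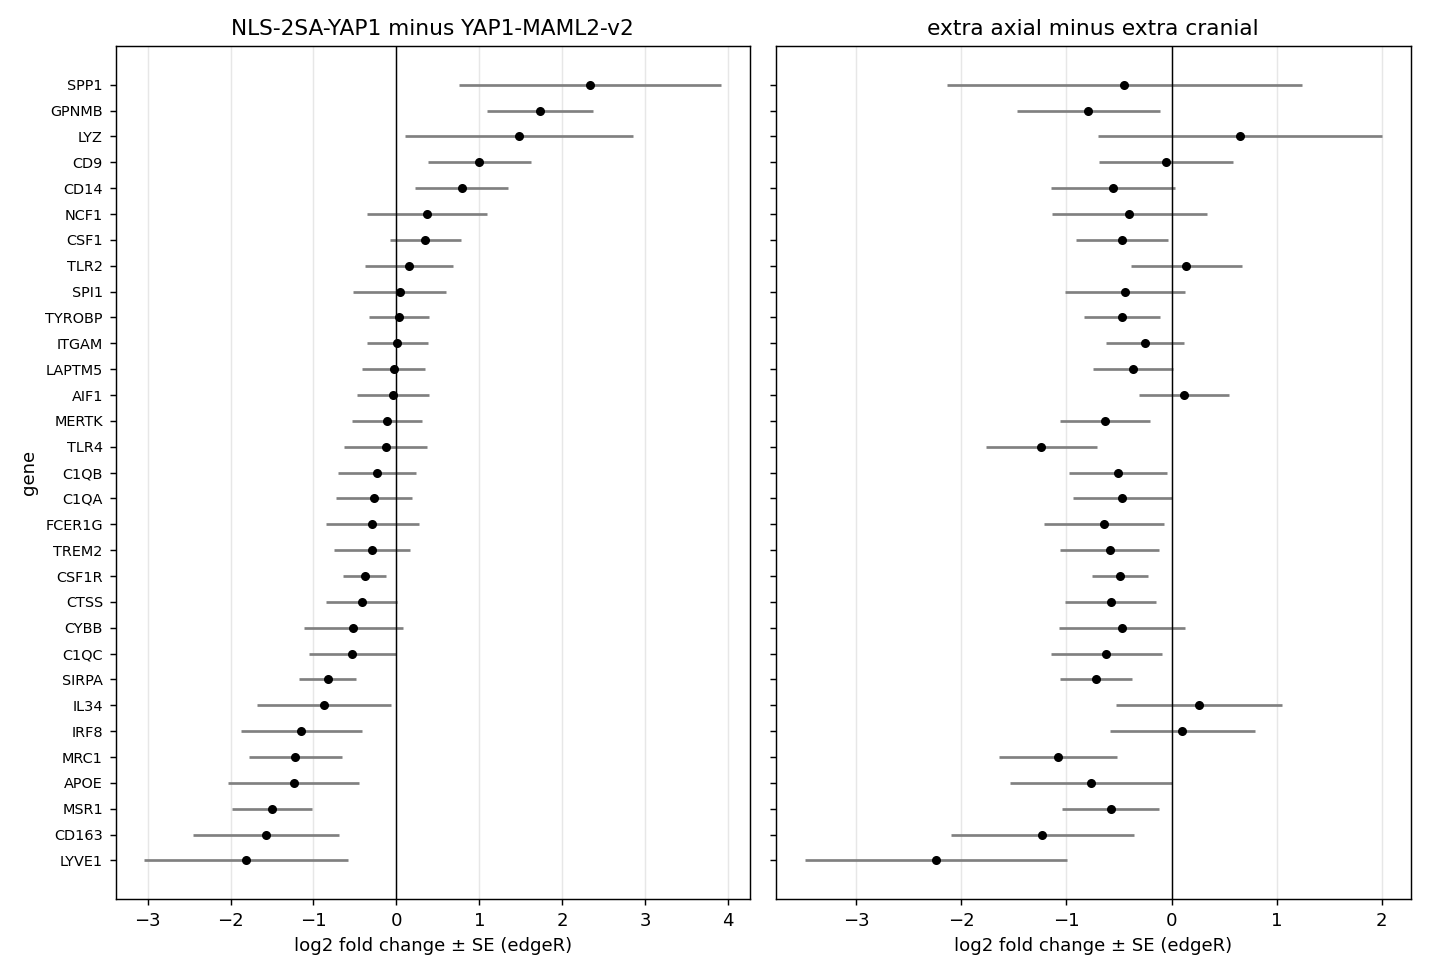
Log2 fold change with its SE (edgeR) of each tested macrophage gene, for NLS-2SA-YAP1 minus YAP1-MAML2-v2 at left and extra axial minus extra cranial at right. No gene passed the adjusted threshold of 0.05 in either panel, and 26 of 31 estimates lie below 0 at right.

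Lists of related genes gave no edgeR call between the constructs either. DESeq2 called 4 of the 169 tested list genes that are not among the 34, all lower in NLS-2SA-YAP1 tumors (2.37%, below the 3.36% of all genes): TLR6 among 11 tested genes of Toll-like receptor signaling, PROS1, a bridging ligand of MERTK, among 10 of efferocytosis, LGMN, a lysosomal protease, among 13 of lysosome and lipid handling, and GPR34 among 9 of microglia. Of 17 tested other macrophage surface genes 16 had a negative log2 fold change, with a median of -1.26, and of 9 other complement genes all 9 had one, with a median of -0.32, where 51.6% of all genes did. T and NK cell markers were negative too, 9 of 9 with a median of -0.50, as were 13 of 16 polarization genes (median -0.86), and the part of the T and NK cells in the other lists was not tested.

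The second comparison is between extra axial and extra cranial tumors. In edgeR 0 of 31 macrophage genes and 0 of 13707 genes (0%) passed the threshold, and at an unadjusted p under 0.05 there were 1 of 31 (TLR4) and 3.01% of all genes. DESeq2 called 31 genes in all (0.226%) and limma-voom 0, none of them among the 31 macrophage genes. The estimates leaned 1 way: 26 of 31 were lower in extra axial tumors (83.9%, against 50.6% of all genes), with a median log2 fold change of -0.49 against -0.01. The 5 genes that leaned the other way were LYZ (0.65), IL34 (0.26), TLR2 (0.14), AIF1 (0.12) and IRF8 (0.10). None of the 31 genes, in either direction, had an adjusted p under 1 in edgeR. YAP1-MAML2-v2 replicate 2 was the low tumor described above and is 1 of the 3 extra axial libraries. Without it the median was -0.21 with 26 of 31 still lower, and without replicate 6, another extra axial tumor, it was -0.83 with 28 of 31 lower.

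TLR4 had 18.9, 44.6 and 33.9 CPM in the extra axial tumors (replicates 2 and 6 of YAP1-MAML2-v2 and replicate 1 of NLS-2SA-YAP1, in this order). In the extra cranial tumors it had a lowest value of 41.4, a median of 57.7 and a highest of 175 CPM, so the regions overlapped only through replicate 6. The estimate for TLR4 was -1.24 (log2; SE 0.53; adjusted p = 1 in edgeR). SIRPA had a log2 fold change of -0.72 (SE 0.34; edgeR adjusted p = 1). No macrophage gene was separated fully by region, against 0.503% of all genes that lay wholly lower in extra axial tumors and 0.387% that lay wholly higher. The core genes, themselves among the 31, took part in the lean, with 6 of 7 negative. So did 12 of 13 genes of ITAM signaling and 16 of 17 other macrophage surface genes. The ITAM list includes TYROBP and FCER1G, which are also among the 31. Skeletal muscle markers leaned the same way, with 6 of 6 negative and a median of -3.16, and with their mean as a covariate 24 of 31 macrophage genes were negative, with a median of -0.55. T and NK cell markers leaned the opposite way, with 8 of 9 positive.

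Whether the construct difference depended on the region was tested in the 9 tumors outside the ventricle, where a single NLS-2SA-YAP1 tumor was extra axial. EdgeR called 0 of 31 macrophage genes and 1 of 13487 genes (0.00741%). At an unadjusted p under 0.05 there were 4 of 31, IL34, LYVE1, LYZ and SPP1, against 7.14% of all genes. DESeq2 called 1 of 31, IL34 (1.51% of all genes), and limma-voom 0. IL34 was at 83.3 and 94 CPM in the extra axial YAP1-MAML2-v2 tumors and at 5.07 CPM in the extra axial NLS-2SA-YAP1 tumor. In the extra cranial tumors it was at 26.9 to 52.6 CPM with YAP1-MAML2-v2 and at 13.3 and 67.3 CPM with NLS-2SA-YAP1, where the constructs overlapped. The interaction was -4.10 on the log2 scale (SE 1.14; edgeR adjusted p = 0.658; 0.0233 in DESeq2). Over the settings tried, its adjusted p lay between 0.0233 and 0.999. It rests on 1 tumor, NLS-2SA-YAP1 replicate 1, which was also the tumor with the lowest LYVE1 (0.527 CPM) and the highest SPP1 (1030 CPM).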

How the data were processed

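RNA-seq libraries of 10 mouse tumors were grouped by construct and source region, as labelled. Per the submitters' processing notes, the authors counted reads with HTSeq on mm10, while versions, aligner and strand setting are not stated there. The deposited whole numbers, under human-style symbols, were treated as estimated counts and not rounded further, since genes at 1 outnumber genes at 2 by 4.54 to 6.82 times in every library. Raw counts had been planned for. Depth is therefore unknown and no counting intervals are given. Of 16895 symbols, 15475 (91.6%) matched GENCODE M21.

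Filtering used filterByExpr by construct (minimum count 10, 13707 genes left), and scaling used TMM. Construct and region were terms of 1 quasi-likelihood fit to all libraries in edgeR 4.0.16 (R 4.3.3), in which the intra ventricular library has its own term. P-values were adjusted over all genes after Benjamini and Hochberg, and 0.05 was the threshold. Log2 CPM used a prior count of 2. Alternatives were DESeq2 1.42.0, limma 3.58.1 with and without voom, and other scalings, filters, covariates and subsets of libraries. The fits were also run on simulated negative binomial counts. The deposited values may not follow such counts, so that run cannot show how the fits behave on them. The members and lists were chosen with earlier results of these data known. All members found are described: in full the C1q genes, CSF1R and its ligands, genes called by a test, separated by construct or with an outlying library, and those of widest and narrowest spread, and the others by range. Genes outside the members come from fixed lists, as counts with up to 4 names, and further ones were named after their values were seen. Coordinates are from GENCODE M21 (mm10) and promoters from RefSeq.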

Additional observations from a re-analysis of the deposited data

Results flagged for a closer look

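In groups of 4 to 10 tumors, gaps between tumors were taken on log2 CPM, while the levels printed here are CPM. The gap between the highest or lowest tumor and its nearest neighbor was divided by the range of the group. Values above Dixon's 95% critical value were taken up (0.568 for 7 tumors, 0.625 for 6). Of 62 combinations of a tested macrophage gene and a group, 4 exceeded it, and chance alone is set to give about 5% of them. CSF1R in YAP1-MAML2-v2 tumors gave 0.623, with the intra ventricular tumor at 623 CPM and the nearest at 223 CPM. ITGAM gave 0.616 in the same group, at 173 CPM against 40.9 CPM, and MRC1 gave 0.581 at the low end, at 4.62 CPM against 63.2 CPM. All 3 of these come from 1 library, whose region no other tumor shares. FCER1G in extra cranial tumors gave 0.645, with YAP1-MAML2-v2 replicate 5 at 95 CPM and the nearest at 39.5 CPM.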

How the results depend on the processing

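Between constructs, 0 macrophage genes were called in the main test and in 22 of 23 alternatives, and DESeq2 called 1 (MSR1, log2 fold change -1.53, adjusted p = 0.0401). Between regions 0 were called in all 22 alternatives. For the interaction, 0 were called in 14 of 15 alternatives, and DESeq2 called 1 (IL34, -4.08, adjusted p = 0.0233). The cause of the DESeq2 calls was not tested. Genes without overlap between constructs went from 0 to 1 without YAP1-MAML2-v2 replicate 7, since MSR1 was lowest there. Of all genes, 2 were called between constructs in edgeR, 685 in DESeq2, 95 in limma-voom, 4 in limma on log2 CPM, and 0 with the core macrophage mean or skeletal muscle mean as a covariate. Leaving out single libraries gave 0 to 2. The median log2 fold change of the macrophage genes between constructs ran from -0.61 to 0.11 over the alternatives (-0.39 to 0.06 without single libraries), and between regions from -0.83 to -0.21. Scaling by library totals moved the median of all genes between regions by 0.14, and the macrophage genes then lay at -0.48 relative to it, as in the main fit. A fit with a replicate block used only replicates 1 to 3 of each construct and had no region term. In it the count of called macrophage genes stayed at 0, that of all genes at 2, and the median between constructs was 0.11. For that median, the block, the smaller set of tumors and the missing region term cannot be told apart. Tumors with the same replicate number correlated by 0.146, 0.342 and 0.02 in their deviations, not all above 0.1. Those with different numbers correlated by -0.246 to 0.109. With so few pairs this cannot decide whether tumors of the same number share anything else. In the intra ventricular tumor, 14 to 17 genes lay above and 4 to 5 below the others over 11 alternatives, chosen after seeing the data. Groups of 7 and 3, 1 intra ventricular tumor and unknown depth limit all of these comparisons.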
